A study of Homo sapiens with 14 samples.

Results

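The RNA of untreated IMR90 cells was examined as a resting description of the line, with no comparison between treatments. IMR90 is an established, non-immortalised line of human fetal lung fibroblasts that divides a limited number of times in culture. The series holds 14 libraries, of which the 2 untreated libraries were used, and the other 12 came from cells given 20 uM of 2',3'-dideoxycytidine (ddC), a nucleoside that blocks mitochondrial DNA (mtDNA) synthesis, for 1 to 4 days. Both untreated libraries came from wild-type IMR90 cells grown in EMEM with fetal bovine serum. The sample labels describe water as vehicle for 4 days, while the series text lists untreated cells as 0 hours of exposure, so the time in vehicle is known only from the labels. The untreated libraries are described as biological replicates. Cells cultured on plastic in serum do not show how the same genes are used in lung tissue.

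Each library was a stranded, polyadenylated RNA library, and the deposited table gives read counts for 27142 genes. Replicate 1 held 11473124 counts and replicate 2 held 11310760 counts. Levels are given as CPM, the counts divided by the library total and multiplied by 1e+06, where genes are ranked. Where genes are compared with each other, levels are given as TPM, the counts divided by the gene's length in the table and scaled so that all genes of a library sum to 1e+06. At these depths 3 counts, the limit that a count of 0 allows, correspond to 0.261 CPM in replicate 1 and 0.265 CPM in replicate 2. That limit covers counting error only. A mean of at least 1 CPM was reached by 12689 genes, and a mean of at least 1 TPM by 13230 genes, or 48.7% of the table. Among protein-coding genes the share at or above 1 TPM was 61.1% (11800 of 19302), with a median of 6.91 TPM. A further 10167 genes had no count in either library, and 1943 genes reached 100 TPM.

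Fibroblasts build and remodel the extracellular matrix. They secrete fibrillar collagens, which assemble into tensile fibres, and fibronectin, which lines those fibres up with integrins on the cell surface. They also secrete the enzymes that modify, cross-link and cut these proteins. In the lung they descend from mesoderm that surrounds the budding airway epithelium, and they keep a transcription factor code of that origin, including HOX genes that record position along the body axis. The respiratory chain of every such cell is built from subunits of nuclear genes together with a few encoded in mtDNA.

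The 2 libraries were compared first, because their spread is the error of every level below. Across 12630 genes with at least 10 counts in each library, log2 CPM of replicate 1 and replicate 2 had a Pearson r of 0.993, which is a description across genes that are not independent of each other. Of these genes 95.8% lay within 1.5-fold of each other, and the SD of the log2 ratio was 0.25. The common biological coefficient of variation was 0.0577, and the chi-square per degree of freedom was 9.84, so the libraries differed by more than counting error. A two-sided exact binomial test, which compares these 2 libraries and not conditions, called 970 of the 12630 genes (7.68%) at a Benjamini-Hochberg adjusted p under 0.05. Of these, 598 (4.73% of those tested) were higher in replicate 2 and 372 (2.95%) were lower.

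The largest differences upward in replicate 2 were those of MALAT1, MIR5047, MIR34AHG, MEG3 and LENG8. MALAT1, a noncoding RNA of nuclear speckles, had 95.6 CPM in replicate 1 and 272 CPM in replicate 2, a 2.84-fold difference (adjusted p = 1.21e-216, exact binomial test). NEAT1, the scaffold RNA of paraspeckles, had 1324 and 3008 counts. MEG3, an imprinted noncoding RNA, had 73.5 and 182 CPM. LENG8, a protein-coding gene, had 53.8 and 131 CPM, and MIR34AHG, the host transcript of miR-34a, had 5.84 and 16.4 CPM. MIR5047, a microRNA gene of 99 bases, had 5.49 and 15.4 CPM. It lies within DDX5 on the same strand, and DDX5 had 9617 and 10341 counts. Reads placed on MIR5047 may therefore belong to DDX5 transcripts, which was not tested. Of the 17 long noncoding RNAs in a fixed list of 23 that had at least 10 counts in each library, 9 were higher in replicate 2 and 0 were lower, beside 4.73% and 2.95% of all genes tested. Over all 555 noncoding genes tested the share higher in replicate 2 was much smaller than in that list. Of these genes 38 (6.85%) were higher and 2 (0.36%) lower, beside 4.73% and 2.95% of all genes tested. The median log2 ratio of the noncoding class was 0.05. That class includes entries that overlap coding genes, such as BLOC1S5-TXNDC5 (7539 and 6901 counts), which overlaps TXNDC5 (7541 and 6900 counts). NEAT1 was named for its place in the fixed list after its values were seen.

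The differences in the other direction were smaller. FAM45BP, a pseudogene whose reads may belong to its parent gene, had 258 and 158 counts, SS18L2 had 12.1 and 8.13 CPM, and CRYAB, a small heat shock protein, had 15.3 and 10.7 CPM. GTPBP8 and A4GALT, the enzyme that makes the P blood group glycolipid, were lower by similar factors (0.705-fold for each). Gene length moved with these calls. The genes were divided into 4 equal groups by length. Of the 3157 genes of the longest group (4778 bases and over) 300 were higher in replicate 2 and 43 were lower. In the shortest group (up to 2029 bases) 44 of 3158 were higher and 110 were lower. Over all genes tested 4.73% were higher and 2.95% were lower. The medians of the log2 ratio in the 4 groups stayed between -0.04 and 0.04. Whether nuclear RNA content, RNA quality or library preparation took part in these differences was not tested.

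**Figure D1:**
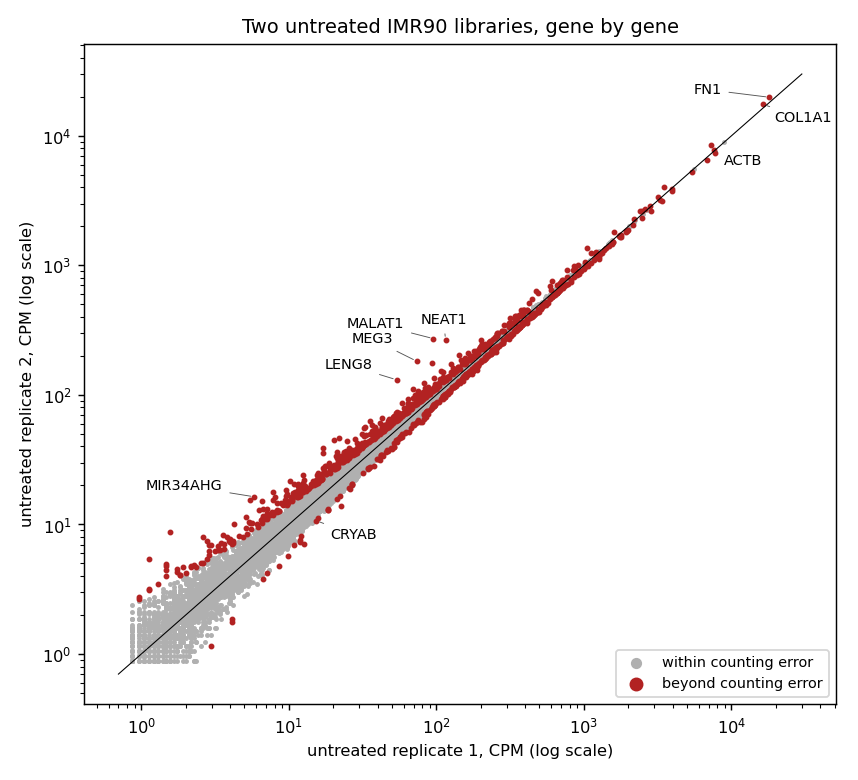
Level of genes in replicate 1 (horizontal axis, CPM, log scale) against replicate 2 (vertical axis, CPM, log scale). Genes are those of the 12630 tested, with any Y-linked genes and X-inactivation transcripts not drawn. Red points are genes beyond counting error (970 of all tested), grey points the rest, and the line marks equal levels. MALAT1, NEAT1, MEG3 and LENG8 stand above the line, while FN1, COL1A1 and ACTB lie close to it.

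The levels of 5 marker genes, fixed with the fibroblast label, are given as a description and not as a test of it. COL1A1, the alpha 1 chain of type I collagen, had 7337 TPM in replicate 1 and 7904 TPM in replicate 2. COL1A2, the partner chain, had 4359 and 4422 TPM. VIM, the intermediate filament protein of mesenchymal cells, had 6698 and 6576 TPM. These 3 genes were among the 20 highest of the whole table on both scales. THY1, a surface glycoprotein that marks many fibroblasts, had 695 and 680 TPM, and PDGFRB, a receptor for platelet-derived growth factor, had 132 and 141 TPM. Each of the 5 markers was above 100 TPM in both libraries. These levels alone do not set fibroblasts apart from pericytes and smooth muscle, whose marker list had 10 of 13 genes at or above 1 TPM.

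Matrix genes headed the ranking by CPM. FN1, fibronectin, was first with 18060 CPM in replicate 1 and 19839 CPM in replicate 2 (mean 18949 ± 1258, SD, n = 2), from the locus chr2:216225163-216300791 on the minus strand of hg19. COL1A1 (chr17:48261457-48279000, minus strand) was next with 16458 and 17467 CPM. COL1A2 (chr7:94023873-94060544, plus strand) followed with 8917 and 8911 CPM. The values of these 3 genes did not overlap, and their order was the same in both libraries.

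Below them stood COL6A3, the long chain of microfibrillar type VI collagen, with 7287 and 8442 CPM, and the cytoplasmic actin ACTB with 7563 and 7705 CPM. The order of COL6A3 and ACTB differed between the libraries. IGFBP5, which binds insulin-like growth factors, had 7727 and 7378 CPM, and GREM1, a secreted antagonist of bone morphogenetic proteins, had 6830 and 6489 CPM. The ranks from 8 to 20 were held by ACTG1, VIM, GAPDH, TGFBI, FLNA, THBS1, ITGB1, SPARC, COL4A1, FSTL1, PKM, COL4A2 and COL6A1, whose means ran from 5595 down to 2563 CPM. COL6A1 held the last place with 2492 and 2634 CPM, and MYH9, the next gene, had 2406 and 2638 CPM, so the boundary at 20 genes lay within the spread of the libraries. Counted over the 6 matrix lists, 10 of the 20 were matrix genes, against 5 of the 20 highest by TPM, and 30 of the 100 highest by CPM were. The 10 highest genes took 8.78% of the counts of replicate 1 and 9.11% of those of replicate 2, and the 100 highest took 22.9% and 23.1%.

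The order changed when levels were taken per length. Such levels depend on the length of the single transcript listed for each gene, which need not be the main one in these cells. TMSB10, an actin-sequestering thymosin of 477 bases, was first with 13623 and 14032 TPM. ACTB had 10978 and 11353 TPM, and LGALS1, the secreted lectin galectin-1, had 8394 and 8205 TPM. COL1A1 came next, GAPDH, a glycolytic enzyme, had 7444 and 7373 TPM, and FN1 stood at rank 8 with 5394 and 6015 TPM. The other genes of the 20 highest on this scale were ACTG1, VIM, the myosin light chain MYL6, the ferritin light chain FTL, COL1A2, GREM1, TGFBI, S100A6, the tropomyosin TPM2, the protease inhibitor TIMP1, cofilin (CFL1), IGFBP5 and a pair of small nucleolar RNAs. Those RNAs, SNORD141A and SNORD141B, had means of 4599 and 4557 TPM, but at about 104 bases each and as near-identical copies their values are uncertain. Both are placed at chr9:135895817-135895921, with 2104 and 2082 counts in replicate 1, so the same reads may be counted for both. Both rankings of 20 shared 10 genes.

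Core promoters of a few of the most abundant mRNAs are shown because they hold the letters TATAA in the place of a TATA box, 40 to 20 bases before the annotated start. The sequences come from RefSeq on GRCh38.p14, run 5′ to 3′ on the gene's strand, end at or before the start site, and carry TATAA in capitals.
TMSB10, chr2:84905596-84905655, plus strand: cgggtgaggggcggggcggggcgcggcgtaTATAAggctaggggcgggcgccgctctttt
FN1, chr2:215436069-215436128, minus strand: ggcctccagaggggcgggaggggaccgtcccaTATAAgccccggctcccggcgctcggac
S100A6, chr1:153535992-153536051, minus strand: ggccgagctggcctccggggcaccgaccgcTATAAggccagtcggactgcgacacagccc
CALR, chr19:12938549-12938608, plus strand: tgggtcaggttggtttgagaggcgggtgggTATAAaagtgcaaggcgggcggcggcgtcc
CALR encodes the calcium-binding chaperone calreticulin and had 2818 and 2797 TPM. Of 27194 promoters in the reference table, 1 for each gene, 4.25% held TATAA on the sense strand in that window. The 4 genes come from the 108 of at least 1000 TPM, of which 85 had a promoter and 15 held the letters (17.6%). With 78.7% of those genes matched, under the 80% set as minimum, that share is void as a check. The 4 genes were picked after their levels were seen, and a match is a description of letters, not of a bound factor.

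The 180 genes of the 6 matrix lists took 11.6% of the counts of replicate 1 and 12.1% of replicate 2 (mean 11.9% ± 0.334, SD, n = 2). Per length their share was 6.71%. A level of at least 1 TPM was reached by 139 of the 180, or 77.2%, beside 48.7% of all and 61.1% of protein-coding genes. The 180 ranged from 0 to 7620.5 TPM with a median of 59.1 TPM. The median was 0.759 TPM over the whole table and 6.91 TPM over protein-coding genes. Medians of lists are over all members, those with no count included, and are higher where members with few counts are left out. Between the libraries, 26 of the 145 matrix genes with at least 10 counts in each were higher in replicate 2 and 18 were lower, beside 4.73% and 2.95% of all genes tested. Of the 28 collagen chains tested 11 were higher in replicate 2 and 0 were lower. High counts make small differences pass this test. The share called in either direction was 65.6% among all genes of at least 10000 counts. Among the 3157 genes of 4778 bases and over, 300 were higher in replicate 2 and 43 were lower. Whether level or length took part in the collagen calls was not tested.

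Of the fibrillar collagens 9 of 11 chains reached 1 TPM, with a median of 18.3 TPM (152 TPM over the chains with at least 10 counts in each library). Behind type I stood COL3A1, the type III chain of elastic tissues, with 978 and 979 TPM. COL3A1 was 0.129 ± 0.00665 of COL1A1 (SD, n = 2). COL5A2, a chain of the type V collagen that sets fibril diameter, had 589 and 600 TPM, and COL5A1 had 275 and 295 TPM. COL5A3 (18.3 TPM), COL27A1 (10.5 TPM), COL11A1 (4.41 TPM) and COL24A1 (3.41 TPM) made up the lower tail. COL11A2 had 0.46 TPM, and COL2A1, the collagen of cartilage, had no count in either library. COL27A1 (282 and 418 counts) was 1.5-fold higher in replicate 2 (adjusted p = 8.56e-06, exact binomial test).

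Chains that share a protein can be set beside each other. A type I collagen molecule contains more alpha 1 than alpha 2 chains, and the ratio of COL1A1 to COL1A2 mRNA per length was 1.68 in replicate 1 and 1.79 in replicate 2 (1.74 ± 0.0737, SD, n = 2). COL4A1 and COL4A2, which are transcribed away from each other from neighbouring starts and form the common basement membrane collagen, had 1157 and 1094 TPM, a ratio of 1.06 ± 0.0152. The type VI chains COL6A1, COL6A2 and COL6A3 had means of 1615, 1727 and 1971 TPM. Their ratios were 0.935 ± 0.00393 for COL6A1 to COL6A2 and 1.14 ± 0.0787 for COL6A3 to COL6A2. On counts the same chains looked further apart, with 3.53 times as much COL6A3 as COL6A2, since the COL6A3 transcript is longer. COL5A1 was 0.479 ± 0.018 of COL5A2.

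Among network and other collagens 18 of 30 chains (60%) reached 1 TPM, beside 48.7% of all and 61.1% of protein-coding genes. After types VI and IV came COL12A1 (392 TPM), COL8A1 (156 TPM), COL18A1 (130 TPM), the precursor of endostatin, and COL16A1 (105 TPM). COL7A1, the anchoring fibril collagen, had 41.1 and 59.7 TPM, and was 1.43-fold higher in replicate 2 (adjusted p = 4.73e-26, exact binomial test). COL10A1, the collagen of hypertrophic cartilage, had 0.0695 TPM, COL17A1 of epithelial hemidesmosomes had 0.21 TPM, and COL4A3 and COL9A1 had no count.

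**Figure D2:**
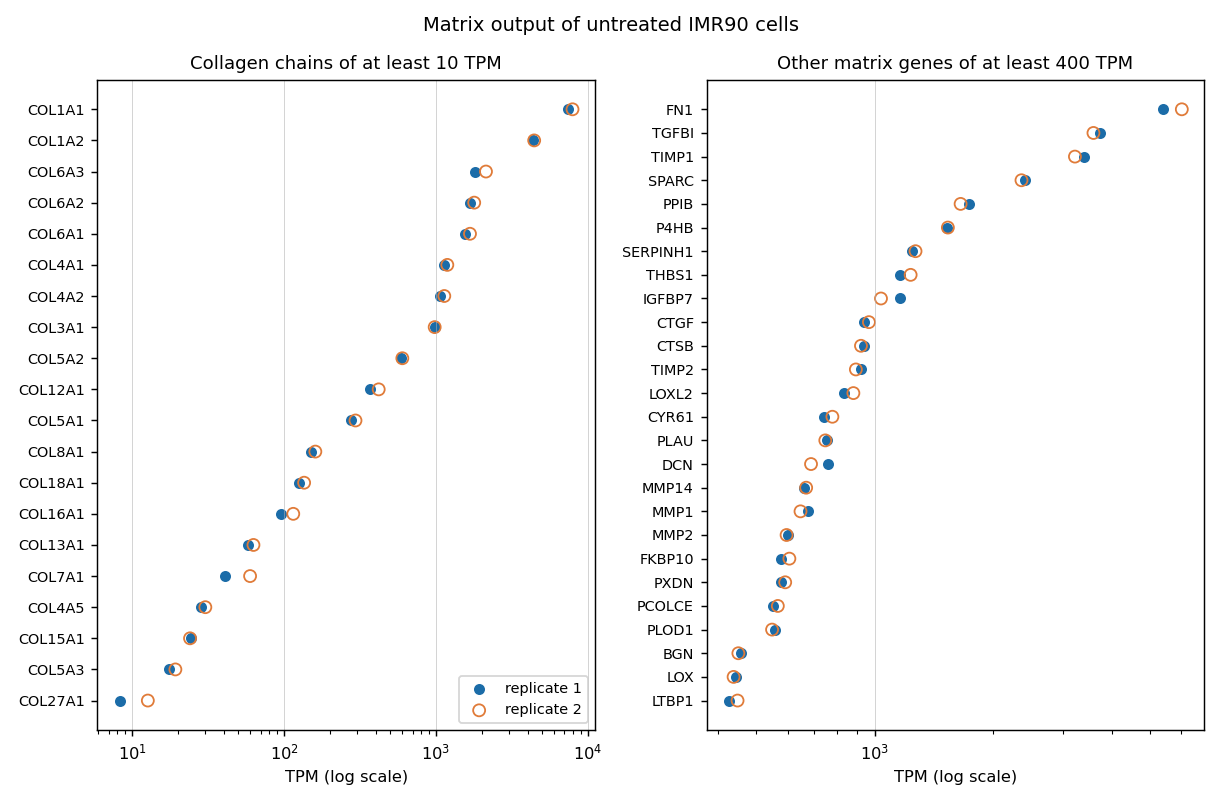
Levels of collagen chains of at least 10 TPM (left) and of the other matrix genes reported here of at least 400 TPM (right) in the untreated cells; the horizontal axes are TPM on a log scale, filled points are replicate 1 and open points replicate 2. COL1A1 and COL1A2 stand above all other chains, and the open point lies visibly to the right of the filled one for COL7A1 and COL27A1.

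Matrix glycoproteins reached 1 TPM in 42 of 50 cases, with a median of 132 TPM. TGFBI, an adhesion protein induced by transforming growth factor beta (TGF-beta), had 3720 and 3588 TPM. SPARC, a collagen-binding counter-adhesive protein, had 2409 and 2356 TPM. THBS1, thrombospondin 1, had 1159 and 1232 TPM. The matricellular genes CTGF and CYR61, both known targets of YAP, had means of 951 and 761 TPM. Elastic fibre genes lay lower: FBN1, fibrillin 1, had 252 and 287 TPM and ELN, elastin, had 124 and 128 TPM. POSTN, periostin, had 131 and 123 TPM.

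The laminin chains were unequal. LAMC1, the common gamma chain, had 349 TPM, LAMB1 had 0.595 ± 0.0181 of it and LAMA4 had 0.139 ± 0.0199 of it (SD, n = 2, per length). LAMA3, the alpha chain of epithelial laminin, had 0.484 TPM. TNXB had 0.118 TPM, COMP, a cartilage protein, had 0.949 TPM, and NPNT, nephronectin, had no count.

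Proteoglycans were led by small leucine-rich members: DCN, decorin, had 759 and 688 TPM and BGN, biglycan, had 457 and 450 TPM. The glypican GPC1 had 296 and 299 TPM. Of the 26 genes 17 (65.4%) reached 1 TPM, beside 48.7% of all and 61.1% of protein-coding genes. Their median was 36.7 TPM. Keratocan (KERA), asporin (ASPN), osteomodulin (OMD), EPYC, NCAN and GPC3 had no count.

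Enzymes and chaperones of collagen processing were high as a group, with 29 of 32 at or above 1 TPM and a median of 134 TPM. PPIB, a prolyl isomerase of the collagen modification complex, had 1735 and 1650 TPM. P4HB, the shared subunit of prolyl hydroxylase, had 1526 and 1532 TPM, and P4HA1, its catalytic partner, was 0.240 ± 0.0156 of that level. SERPINH1, the collagen chaperone HSP47, had 1243 and 1268 TPM. The cross-linking enzymes LOXL2 and LOX had means of 858 and 441 TPM. All 28 genes of a secretory pathway list reached 1 TPM, with a median of 446 TPM. TLL1 had no count.

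The highest gene of the protease list was an inhibitor. TIMP1 had 3390 and 3220 TPM and MMP1, interstitial collagenase, had 675 and 647 TPM, a ratio of 5.00 ± 0.0341 (SD, n = 2). TIMP2 was 1.51 ± 0.0195 times MMP2, its gelatinase partner. CTSB, cathepsin B, had 939 and 922 TPM. MMP14, the membrane-bound collagenase, had 665 TPM. MMP7, MMP9 and MMP13 had no count. In all 24 of the 31 genes reached 1 TPM, with a median of 23.4 TPM.

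In the list of fibroblast surface and cytoskeleton genes 32 of 32 reached 1 TPM, with a median of 147 TPM. ITGB1, the common beta integrin, had 2313 and 2160 TPM, and its fibronectin-binding partner ITGA5 was 0.204 ± 0.0162 of that. S100A6 had 3585 and 3363 TPM. FAP, fibroblast activation protein, had 109 and 107 TPM, and PDGFRB was 1.40 ± 0.0522 times PDGFRA. S100A4, often used as a fibroblast marker, had 24.2 TPM.

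Contractile genes reached 1 TPM in 30 of 32 cases, with a median of 486 TPM. MYL6 had 5673 and 5559 TPM, TPM2 had 3307 and 3364 TPM, and TAGLN, transgelin, had 3157 and 3126 TPM. ACTA2, the smooth muscle alpha actin that marks myofibroblasts, had 732 and 696 TPM. ACTG2, the enteric smooth muscle actin, had 787 and 776 TPM, so that ACTA2 was 0.914 ± 0.0223 of it. MYOCD, the master coactivator of smooth muscle genes, had 42.9 and 42.5 TPM. MYH11, the myosin heavy chain of mature smooth muscle, had 12 and 7 counts (0.318 TPM), and DES, desmin, had 7 and 9 counts (0.83 TPM).

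Nuclear genes of the respiratory chain were expressed almost without gaps. Complex I, the NADH dehydrogenase, had 37 of 37 subunits at or above 1 TPM, with a median of 143 TPM and a range from 16.4 TPM (NDUFA5) to 688 TPM (NDUFS5). Complex II, succinate dehydrogenase, had 4 of 4 with a median of 84.0 TPM, led by SDHB with 176 and 170 TPM. Complex III had 9 of 9 with a median of 167 TPM, led by UQCRC1 with 258 and 250 TPM. Complex V, the ATP synthase, had 16 of 16 with a median of 378 TPM. Its catalytic beta subunit ATP5B had 1031 and 966 TPM, and ATP5A1, the alpha subunit, was 0.521 ± 0.00946 of that. Alpha and beta subunits occur in equal numbers in the enzyme.

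Complex IV, cytochrome c oxidase, was the only complex of the 5 with members under 1 TPM: 12 of 17 reached it, with a median of 204 TPM. COX8A had 687 and 708 TPM, COX4I1 had 614 and 578 TPM and COX6B1 had 416 and 414 TPM. The 5 genes under 1 TPM were COX6B2 (0.562 TPM), COX8C (0.217 TPM), and COX4I2, COX6A2 and COX7B2, which had no count. All 5 are isoforms known from particular tissues, such as COX4I2 from lung, COX6A2 from striated muscle and COX6B2 from testis. COX7A1, the muscle and heart isoform, had 10 and 15 counts (3.84 TPM) while its general counterpart COX7A2 had 358 and 371 TPM. COX7A2 was thus 99.1 ± 27.7 times COX7A1 (SD, n = 2), a ratio that rests on the few counts of the latter.

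The table held 0 genes of the mitochondrial chromosome, so none of the 15 mtDNA genes listed here has a value. A list of nuclear genes for mtDNA maintenance and transcription, measured here as mRNA, had 36 of 36 at or above 1 TPM, with a median of 21.7 TPM. SSBP1, which coats single-stranded mtDNA, had 351 and 343 TPM and was the highest. SUCLG1 had 146 and 145 TPM and DGUOK, a deoxynucleoside kinase of the organelle, had 132 and 138 TPM. POLG, the mtDNA polymerase that ddC inhibits, had 32.7 and 37.3 TPM. TFAM, the packaging and transcription factor, had 24.5 TPM in each library. TWNK, the helicase, had 12.5 TPM, and POLRMT, the RNA polymerase, had 9.43 and 12.4 TPM. TK2, the mitochondrial thymidine kinase, had 12.8 and 14.7 TPM.

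All 75 mitochondrial ribosomal proteins in the list reached 1 TPM, with a median of 82.1 TPM and a range from 19.5 TPM (MRPS11) to 539 TPM (MRPL51). After MRPL51 the highest were MRPL33 with 322 and 318 TPM and MRPS24 with 202 and 209 TPM.

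Regulators of mitochondrial biogenesis were mixed. PPARD had 77.1 and 85.8 TPM, YY1 had 73.1 and 65.2 TPM, and PPRC1, a member of the PGC-1 coactivator family, had 39.2 and 44.8 TPM. NRF1, an activator of respiratory chain genes, had 18.5 and 17.2 TPM. PPARGC1A, the best known PGC-1 coactivator, had 6 and 8 counts (0.238 TPM), and PPARGC1B had 0.142 TPM. ESRRB had no count. In all 9 of the 13 (69.2%) reached 1 TPM, beside 48.7% of all and 61.1% of protein-coding genes. The 207 mitochondrial genes together took 1.18% ± 0.0337 of the counts (SD, n = 2).

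Cell cycle genes were expressed throughout. DNA replication genes reached 1 TPM in 46 of 46 cases, with a median of 47.7 TPM, and genes of G2 and mitosis in 42 of 42 cases, with a median of 148 TPM. PCNA, the sliding clamp of replication, had 373 and 352 TPM. TYMS, thymidylate synthase, had 308 and 304 TPM, RRM2, the S phase subunit of ribonucleotide reductase, had 248 and 261 TPM, and MCM7, part of the ring-shaped helicase, had 214 and 224 TPM. E2F2, with 4.11 TPM, was the lowest of the replication list.

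HMGB2, a chromatin protein, led the mitotic list with 515 and 531 TPM. CKS2, a cyclin-dependent kinase subunit, had 391 and 425 TPM and CCNB1, cyclin B1, had 398 and 378 TPM. TOP2A, topoisomerase II alpha, had 350 and 377 TPM and PTTG1, securin, had 277 and 300 TPM. MKI67, the Ki-67 antigen, had 81.1 and 96.2 TPM and was 1.17-fold higher in replicate 2 (adjusted p = 8.09e-12, exact binomial test). In bulk RNA, fewer cells of a kind and less RNA per cell cannot be told apart, so these levels give no share of dividing cells.

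Promoters of these genes carried letters known from cell cycle control. CCAAT is the core of the site of the factor NF-Y, TTTGAA is the cell cycle homology region (CHR) bound by DREAM and B-MYB complexes, and TTTCCCGC or TTTGGCGC are forms of the E2F site. Windows around CCAAT, or its reverse complement ATTGG, are shown for mitotic genes of high level, 5′ to 3′ on the gene's strand with 1 match in capitals. Further matches in a window, as in CKS2 and PTTG1, are left in lower case or overlap the capitals.
CKS2, chr9:89311116-89311175, plus strand: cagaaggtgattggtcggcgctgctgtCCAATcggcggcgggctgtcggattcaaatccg
CCNB1, chr5:69167068-69167127, plus strand: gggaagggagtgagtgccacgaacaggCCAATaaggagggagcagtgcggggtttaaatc
TOP2A, chr17:40417917-40417976, minus strand: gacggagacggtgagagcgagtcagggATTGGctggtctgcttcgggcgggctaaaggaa
PTTG1, chr5:160421780-160421839, plus strand: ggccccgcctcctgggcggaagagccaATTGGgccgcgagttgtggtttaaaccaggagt
The capitals begin between 48 and 55 bases before the start in these 4 promoters. CKS2 also holds the reverse complement of TTTGAA downstream of its capitals. Over the 250 bases before the start and on both strands, CCAAT was present in 27 of the 34 mitotic promoters found (79.4%), beside 33.0% of all 27194. TTTGAA was present in 19 of the 34 (55.9%), beside 13.6% of all, and both motifs together in 17, or 50%, beside 4.87%.

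Replication genes had other letters. Windows around the reverse complement of TTTCCCGC are shown for 3 genes of that list with high levels that hold an E2F form.
PCNA, chr20:5126648-5126707, minus strand: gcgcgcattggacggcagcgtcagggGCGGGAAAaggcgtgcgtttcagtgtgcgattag
TYMS, chr18:657588-657647, plus strand: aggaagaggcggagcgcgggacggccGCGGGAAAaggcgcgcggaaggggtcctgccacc
MCM7, chr7:100101551-100101610, minus strand: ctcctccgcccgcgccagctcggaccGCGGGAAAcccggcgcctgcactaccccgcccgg
An E2F form was present in 13 of the 39 replication promoters found (33.3%) and in 2 of the 34 mitotic ones (5.88%), beside 1.96% of all. TTTGAA was present in 2.56% of the replication promoters, and CCAAT in 53.8%. The motifs were chosen after the levels were seen, promoters of neighbouring genes can overlap, and the counts describe letters only.

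G1 regulators reached 1 TPM in 13 of 14 cases. CCND1, cyclin D1, had 450 TPM in each library and was 5.67 ± 0.127 times CCND3, while CCND2 had 15 and 13 counts (0.497 TPM). CDK4 had 230 and 224 TPM and CDK2 had 194 and 208 TPM. CDK4 was 5.56 ± 0.756 times CDK6 per length (SD, n = 2), although CDK4 had 2011 and 1898 counts and CDK6 1940 and 2221, since the CDK6 transcript is longer.

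A list of cell cycle inhibitors and genes of the p53 axis was present at the same time. Of its genes 20 of 20 were at or above 1 TPM, with a median of 31.1 TPM. CDKN1A, the p21 inhibitor and a p53 target, had 523 and 506 TPM. BAX, a p53 target that permeabilises mitochondria, had 297 and 304 TPM, and CDKN3 had 163 and 143 TPM. CDKN2A, whose locus encodes p16 and p14ARF, had 26.3 and 27.3 TPM, or 0.0521 ± 0.00261 of CDKN1A. Of 12 telomere genes 11 reached 1 TPM. NOP10 and NHP2, proteins of the telomerase particle that also serve small nucleolar RNAs, had 408 and 128 TPM, TERF2IP had 92.9 TPM, and TERT, the catalytic subunit of telomerase, had no count in either library. The 134 proliferation genes together took 1.49% and 1.5% of the counts of replicates 1 and 2.

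**Figure D3:**
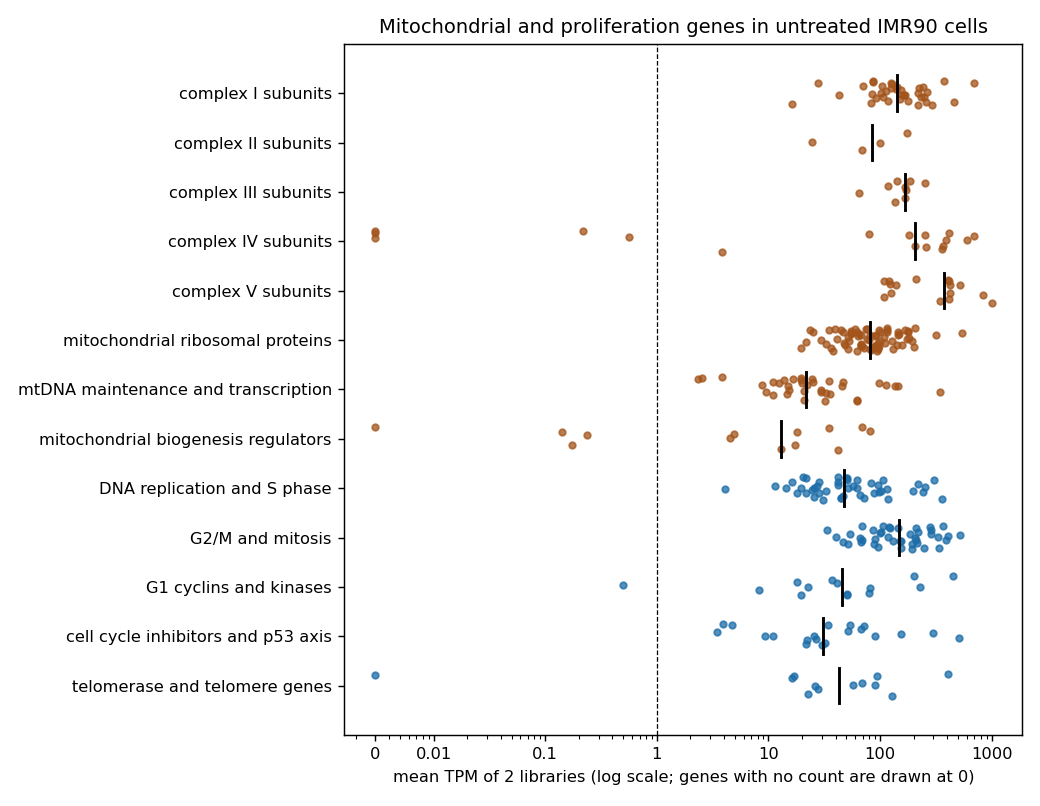
Mean TPM over the 2 libraries (horizontal axis, log scale, genes with no count drawn at 0) for each member of the mitochondrial lists (brown) and proliferation lists (blue); black bars are list medians and the dashed line is 1 TPM. Members under 1 TPM appear in the complex IV, biogenesis regulator, G1 and telomere lists.

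Transcription factors of lung mesenchyme followed. FOXF1, a forkhead factor of splanchnic mesoderm, was the highest of its list with 248 and 253 TPM. TBX2 had 153 and 159 TPM, and TBX3, its relative, had 105 and 118 TPM. NR2F2, an orphan nuclear receptor, had 127 and 137 TPM. FOXF1 was 6.95 ± 0.331 times FOXF2. Of the 32 factors 22 (68.75%) reached 1 TPM, beside 48.7% of all and 61.1% of protein-coding genes. Their median was 24.6 TPM.

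TBX5 and TBX4, T-box genes that act together in the embryonic lung bud, were far apart. TBX5 had 41.6 and 43.1 TPM, and TBX4 had 4 and 2 counts (0.204 TPM). TCF21, a factor of lung and kidney interstitium, had 29.9 and 31.7 TPM. MEOX2, ISL1, NKX2-3 and BARX1 had no count. Of 17 T-box genes TBX2, TBX3, TBX5 and MGA (8.11 TPM) reached 1 TPM, and the other 13 did not.

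Noncoding genes next to these factors were expressed with them. FENDRR, whose start lies 1667 bases from that of FOXF1 on chromosome 16 and which is read in the opposite direction, had 113 TPM in each library, or 0.450 ± 0.00619 of FOXF1. TBX5-AS1 starts 2032 bases from TBX5 on chromosome 12, also in the opposite direction, and had 55.8 and 52.2 TPM, or 1.28 ± 0.0917 times TBX5. Neither noncoding gene overlaps its neighbour in the table (FENDRR at chr16:86521272-86542466 and FOXF1 at chr16:86544133-86548070, TBX5-AS1 at chr12:114846000-114850637 and TBX5 at chr12:114791735-114843968, hg19).

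General mesenchymal factors reached 1 TPM in 35 of 43 cases, with a median of 35.9 TPM. FOSL1, an AP-1 subunit, had 313 and 332 TPM, CREB3L1, a factor for collagen genes, had 300 and 315 TPM, and YAP1, the Hippo pathway effector, had 178 and 176 TPM. In the nuclear factor I family NFIX had 92.9 and 102 TPM and NFIA had 33 and 40 counts (0.894 TPM), a ratio of 110 ± 10.2. TWIST1 was 1.13 ± 0.0574 times TWIST2. EN1, DLX5, HAND1, ALX1 and ALX4 had no count.

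HOX genes gave a map of 2 active clusters. These homeobox genes lie in 4 clusters, and those with higher paralogue numbers are used further toward the tail of the embryo. HOXA had 8 of 11 genes at or above 1 TPM and HOXB had 7 of 10, HOXC had 3 of 9 and HOXD had 0 of 9. Every HOXD gene, across chr2:176957532-177055635, had no count in either library. HOXB summed to 325 and 328 TPM, HOXA to 117 in each library, and HOXC to 7.67 and 6.32 TPM.

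In the HOXB cluster HOXB2 had 72.4 and 73.7 TPM, HOXB6 had 68.9 and 67.7 TPM, and HOXB5 had 61.9 and 58.9 TPM. HOXB3 had 49.9 and 58.7 TPM, HOXB7 had 46.8 and 42.8 TPM, HOXB4 had 18.8 and 21.0 TPM and HOXB8 had 5.77 and 5.17 TPM. HOXB1 had no count, and HOXB9 had 1 and 3 counts, so the genes at or above 1 TPM formed an unbroken stretch from HOXB2 to HOXB8.

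HOXA5, known for its part in lung development, stood out in the HOXA cluster with 61.7 and 61.6 TPM, a level that overlapped that of HOXB5 (ratio 1.02 ± 0.0349). HOXA3 had 19.5 and 20.9 TPM, HOXA4 had 14.2 and 13.4 TPM, and HOXA2, HOXA7 and HOXA6 had means of 7.25, 7.02 and 3.19 TPM. HOXA9 was the last with 12 and 14 counts (1.47 TPM). HOXC8 had 37 and 18 counts (2.77 TPM), HOXC6 had 1.90 TPM and HOXC4 had 1.06 TPM. HOXC4, HOXC5 and HOXC6 start at the same position in the table, so reads they share cannot be split among them. Over the 4 clusters 17 of 23 genes numbered 1 to 8 reached 1 TPM, and 1 of 16 numbered 9 to 13 did.

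All 9 cofactors of HOX proteins reached 1 TPM. MEIS1 had 79.6 and 92.6 TPM, PBX2 had 37.0 and 46.3 TPM, and MEIS2 had 38.7 and 40.7 TPM. MEIS1 was higher in replicate 2 by 1.15-fold (adjusted p = 0.019, exact binomial test).

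**Figure D4:**
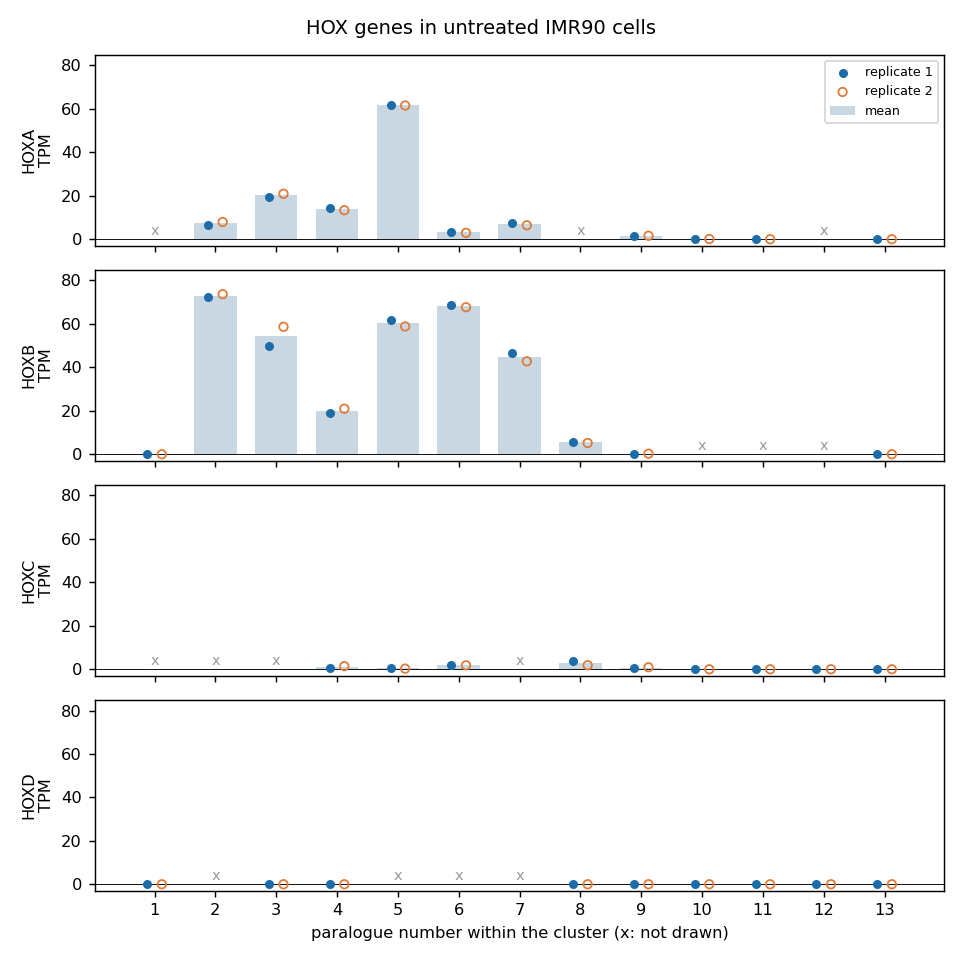
HOX genes of the 4 clusters by paralogue number (horizontal axis) and level in TPM (vertical axis, linear from 0); bars are means of 2 libraries, crosses mark numbers not drawn, filled points replicate 1 and open points replicate 2. Levels above 10 TPM occur in HOXA3 to HOXA5 and in HOXB2 to HOXB7, and all HOXD bars are at 0.

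Secreted signals of the mesenchyme were uneven: 27 of 43 reached 1 TPM, with a median of 9.88 TPM. That share (62.8%) was near the 61.1% of protein-coding genes, and 48.7% of all genes reached 1 TPM. GREM1 was the highest with 4326 and 4173 TPM. DKK3 had 731 and 692 TPM and SFRP1, an antagonist of WNT ligands, had 306 and 295 TPM. WNT5A, a ligand of the noncanonical pathway, had 194 and 201 TPM and was 2.78 ± 0.0697 times WNT5B. FGF7, a growth factor for epithelium, had 44.3 and 42.9 TPM, but FGF10, the inducer of lung branching, had no count, and WNT2 had 2.11 TPM. SHH, which the epithelium makes, had no count.

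Receptors for such signals were widely present, with 51 of 56 at or above 1 TPM and a median of 34.3 TPM. AXL, a receptor tyrosine kinase, had 419 and 420 TPM, LPAR1, a receptor for lysophosphatidic acid, had 234 and 222 TPM, and FZD7, a WNT receptor, had 201 and 193 TPM. FGFR1 had 98.3 TPM and FGFR2, whose epithelial form binds FGF7 and FGF10, had no count. In the TGF-beta list 24 of 24 genes reached 1 TPM, with a median of 52.1 TPM. FSTL1 had 1939 and 1837 TPM, FST, the activin antagonist follistatin, had 698 and 706 TPM, TGFB1 had 196 and 198 TPM, and SMAD3 had 169 TPM.

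Markers proposed for subtypes of lung fibroblast were split. Of 32 genes 15 reached 1 TPM (46.9%, beside 48.7% of all and 61.1% of protein-coding genes), with a median of 0.816 TPM. ACTG2 led, CTHRC1, a secreted glycoprotein of fibrotic matrix, had 347 and 323 TPM, and CLU, clusterin, had 292 and 277 TPM. PLIN2, a lipid droplet protein, had 163 and 150 TPM. The adventitial markers CD34 and SCARA5 and the alveolar fibroblast gene NPNT had no count, and PI16 had 1.85 TPM.

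Genes of other lineages were mostly silent. Of 262 genes in 15 lists 149 had no count in either library. At or above 1 TPM stood 51 (19.5%), beside 48.7% of all and 61.1% of protein-coding genes, and 20 reached 10 TPM. Together the 262 genes took 0.183% of the counts of replicate 1 and 0.187% of replicate 2. Pericyte and smooth muscle markers supplied the most of any list: 10 of these 13 genes reached 1 TPM, with a median of 37.4 TPM. MCAM, an adhesion molecule of vessel walls, had 229 and 227 TPM, CNN1, calponin, had 150 and 151 TPM and SMTN, smoothelin, had 111 and 128 TPM. CSPG4 (67.4 TPM), LMOD1 (64.5 TPM), NOTCH3 (37.4 TPM), KCNJ8 (14.4 TPM), RGS5 (2.91 TPM) and ABCC9 (2.31 TPM) completed them with MYOCD. HIGD1B had no count. Of that list CNN1, SMTN, LMOD1, DES and MYH11 also stand in the contractile list and NOTCH3 in the receptor list.

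Among epithelial genes simple keratins and CLDN4, a claudin, were measured above 5 TPM. KRT18 had 75.3 and 81.4 TPM, KRT8 had 10.6 and 8.12 TPM, KRT7 had 7.82 TPM and KRT19 had 6.88 TPM, and CLDN4 had 7.15 TPM. EPCAM, the epithelial adhesion molecule, had 6 and 9 counts (1.02 TPM). CDH1, the cadherin of epithelium, had no count, which allows up to 0.261 CPM in replicate 1, and ESRP1, GRHL2 and KRT5 had none either. Of the 20 genes 6 reached 1 TPM. In lung epithelium 2 of 20 did: AGER with 31 and 48 counts and HOPX with 14 and 11 counts. NKX2-1, the lung epithelial master regulator, and the surfactant genes SFTPA1, SFTPA2, SFTPB, SFTPC and SFTPD had no count.

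Endothelial genes reached 1 TPM in 5 of 16 cases. TEK, an angiopoietin receptor, had 519 and 442 counts (23.4 TPM), FLT1 had 6.07 TPM, EGFL7 had 5.90 TPM, TIE1 had 1.82 TPM and ROBO4 had 1.21 TPM. PECAM1, CDH5, ERG and CLDN5, which define endothelium, had no count, and KDR had 1 count in 1 library. Mesothelial genes were at the limit, with BNC1 at 2.11 TPM, CALB2 at 1.76 TPM and WT1 without a count.

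Blood and immune genes reached 1 TPM in 3 of 27 cases. CD68, a lysosomal glycoprotein best known from macrophages, had 76.3 and 73.8 TPM, and CD4, the T cell coreceptor, had 28.2 and 31.4 TPM. FCER1G had 5 and 4 counts (1.78 TPM). PTPRC, the pan-leukocyte antigen CD45, had 1 count in each library, CD3D, CD3E, SPI1, ITGAM and CD163 had none, and HBB had 1 count in each. The levels of CD68 and CD4 were thus found beside defining markers at or near 0.

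Of the cartilage and bone genes 8 of 16 reached 1 TPM (50%), and 5 reached 2 TPM. The share at or above 1 TPM was 48.7% of all genes and 61.1% of protein-coding genes. SOX9, the chondrogenic regulator, had 35.8 and 39.1 TPM, MATN3 had 14.3 TPM, RUNX2, the osteogenic regulator, had 10.0 TPM, BGLAP had 5.04 TPM, SOX6 had 3.21 TPM, SOX5 had 1.62 TPM, ACAN had 1.52 TPM and ALPL had 1.03 TPM. SP7, COL2A1 and IBSP had no count. Of the adipocyte genes PPARG, the adipogenic receptor, had 18.1 TPM, FABP4 had 5.01 TPM and CFD had 1.24 TPM, while ADIPOQ and LEP had no count. In striated muscle 1 of 24 reached 1 TPM, the cardiac actin ACTC1 with 30.4 and 32.2 TPM, and MYOD1, MYOG, PAX7 and NKX2-5 had no count.

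TUBB3, a tubulin used as a neuronal marker, was the highest gene of all the lists of other lineages with 338 and 346 TPM. NEFM, a neurofilament, had 13.3 TPM, SYT1 had 5.14 TPM, MBP had 4.64 TPM and SNAP25 had 1.34 TPM, whereas NEUROD1, SOX2, SOX10, OLIG2 and PAX6 had no count. MITF, a regulator of pigment cells and lysosomes, had 13.9 and 13.1 TPM, PMEL had 5.28 TPM and NRL had 1.06 TPM, and TYR and MLANA had no count.

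The remaining lists held at most 1 gene at or above 1 TPM. DNMT3B, a DNA methyltransferase, had 3.63 TPM, and POU5F1, NANOG and LIN28A of the pluripotency list had no count. PAX8 had 1.06 TPM in the kidney and gut list. CEL had 7 and 19 counts (1.28 TPM) in the liver and pancreas list, where ALB, INS and HNF4A had none. None of the 17 germline genes reached 1 TPM, and the highest, TEX14, had 1 and 4 counts.

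**Figure D5:**
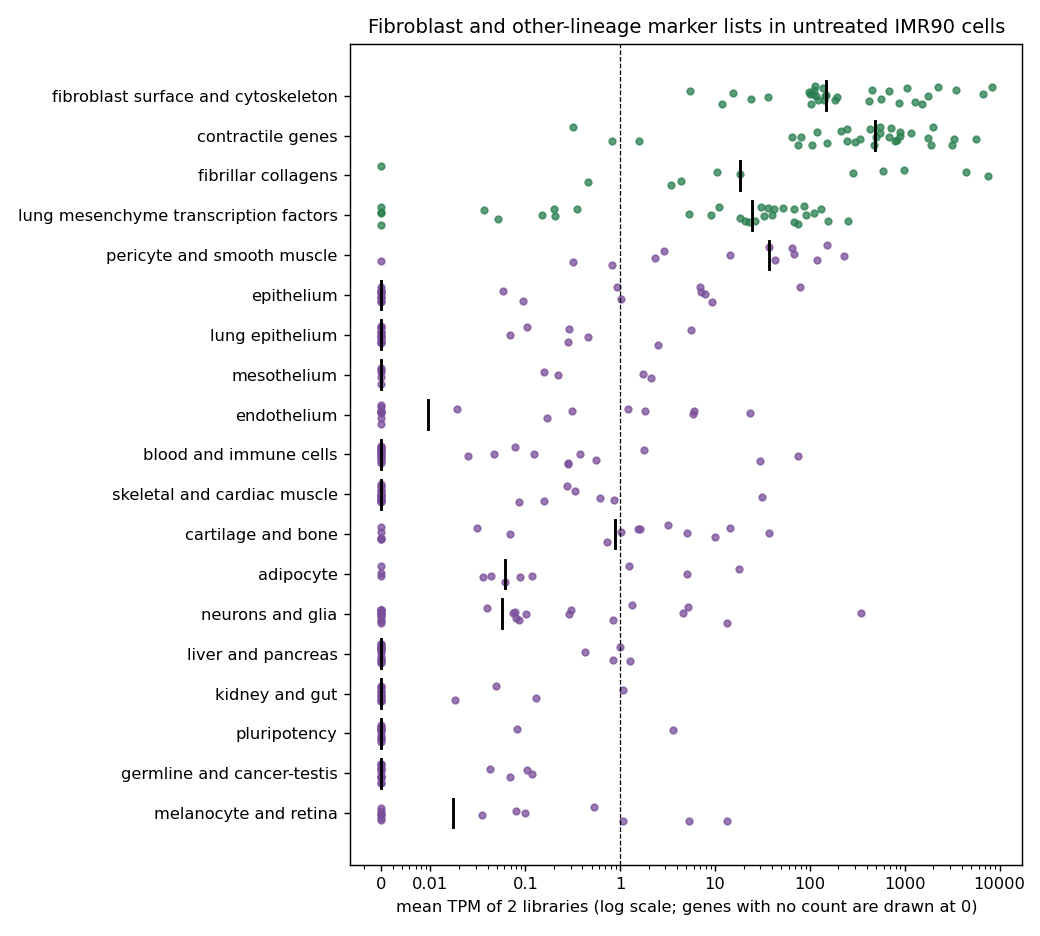
Mean TPM over the 2 libraries (horizontal axis, log scale, genes with no count drawn at 0) for each gene of 4 lists (green: fibroblast surface and cytoskeleton, contractile genes, fibrillar collagens and lung mesenchyme transcription factors) and 15 lists of other lineages (purple); black bars are list medians and the dashed line is 1 TPM. Medians of the 4 green lists drawn lie above 10 TPM, as does that of pericytes and smooth muscle among the purple lists; 2 fibroblast lists not drawn, signals (9.88 TPM) and subtype markers (0.816 TPM), have medians under 10 TPM.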

How the data were processed

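Polyadenylated RNA of IMR90 cells was sequenced from 14 libraries (TruSeq Stranded mRNA, per the labels' protocols), and the 2 untreated libraries were analysed here. The authors aligned reads with STAR 2.5.3a to hg19 and quantified them with HOMER, per the submitters' processing notes. The strand setting and any filter are not given in the sources used here. The table deposited by the authors gives unnormalized read counts for each gene, with the gene length and hg19 coordinates in further columns, and has 0 rows of the mitochondrial chromosome. Genes with more than 1 copy in the table (860) and genes with near-identical copies can have split or repeated counts. Overlapping entries can also count the same reads: TXNDC5 had 7541 and 6900 counts, and BLOC1S5-TXNDC5, which overlaps it, had 7539 and 6901.

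CPM was computed from the deposited counts as counts over the library total, and TPM from counts over the table's length. No scaling between libraries was applied. TMM factors were 1.0005 and 0.9995 (edgeR 4.0.16, also used for the coefficient of variation), and median-ratio factors came from DESeq2 1.42.0, both in R 4.3.3. The binomial test was made in scipy 1.17.1 and tested on simulated data, in which unchanged genes differed by counting error only. These libraries spread more than that, so the simulation does not show how the test behaves under their spread. Every SD rests on 2 values, and no test between groups was made. Promoters (RefSeq, GRCh38.p14) were joined by symbol for 16781 genes, with the most upstream start for each gene, and were not mixed with hg19 positions.

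Named genes are the 20 highest on each scale, the 3 highest of each list and any gene of another lineage at or above 1 TPM, every HOX gene at or above 1 TPM, the 5 largest library differences each way at a mean of at least 10 CPM, the highest of each family and a set of fixed markers. Others, such as members with no count, were named after their values were seen. The samples, lists and rule were chosen with earlier results of these data known. Y-linked genes and X-inactivation transcripts were left out, and a few genes are not reported here.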

Additional observations from a re-analysis of the deposited data

How the results depend on the processing

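Leaving out each library in turn kept the number of genes at or above 1 CPM between 12610 and 12702, the share of the 100 highest genes between 22.9% and 23.1%, the matrix share between 11.6% and 12.1%, 19 of the 20 highest genes, and the list members at or above 1 TPM between 803 and 809 of a main count of 806. The median over all list members was 34.9 TPM from both libraries and 34.3 TPM from either alone. Ranking per length moved the share of the 100 highest genes to 25.7%, the matrix share to 6.71%, and kept 10 of the 20 highest genes. Restricting to members with at least 10 counts in each library moved the median over all list members to 81.8 TPM, since members with few counts are left out. By list, 31 medians moved and 14 stayed within the spread: network and other collagens went from 2.17 to 82.8 TPM, proteases and inhibitors from 23.4 to 194 TPM and subtype markers from 0.816 to 27.5 TPM. In the liver and pancreas list the number at or above 1 TPM was 2 without replicate 1 and 0 without replicate 2. TMM scaling left 12689 genes at or above 1 CPM, and other limits gave between 11875 (2 CPM) and 13438 (0.5 CPM). Genes beyond counting error numbered 969 with TMM, 1029 with median-ratio factors and 896 with no filter on low counts. No paired analysis was possible because the results come from no test between groups. With 2 libraries the order of genes whose values overlap is unsettled, and levels of a few counts carry their counting error.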

Other observations

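Gene families defined by symbol, some of whose members stand in the lists above, were counted in the same way. Of 83 cytosolic ribosomal protein genes 78 reached 1 TPM, with a median of 605 TPM, and RPL11 was the highest with 3147 and 3056 TPM. Of 71 replication-dependent histone genes, whose mature mRNA ends in a stem-loop in place of a poly(A) tail, 25 reached 1 TPM in these polyadenylated libraries, and the highest, HIST1H2BK, had 35.0 and 34.1 TPM. Of 24 claudins 6 reached 1 TPM, led by CLDN11 with 229 and 223 TPM. Of 45 interleukins 13 did, led by IL11, a cytokine of the IL-6 family, with 94.1 and 88.8 TPM, and of 38 chemokines 3 did, led by CXCL12 with 188 and 177 TPM.

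Families with restricted use stood at the other end. None of 379 olfactory receptor genes reached 1 TPM and 376 had no count. Of 93 keratin-associated protein genes 2 reached it, with KRTAP2-3 the highest (51 and 37 counts), and of 9 PAX genes 1 did. None of 8 LIM homeobox genes did. The clustered protocadherins differed by cluster: 22 of 23 gamma genes, 6 of 16 beta genes and 0 of 15 alpha genes reached 1 TPM. The gamma genes share their last exons, so their near-equal levels (PCDHGC3 highest with 136 and 134 TPM) cannot be split among members.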
